A study of Komagataella pastoris with 3 samples.

Results

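The step from 24 h to 36 h of culture in glucose-containing rich medium was examined in Pichia pastoris GS115, a strain of a yeast that can grow on methanol and serves as a host for protein production, today placed in Komagataella phaffii. Log-phase cells labelled wild-type were diluted into fresh YPD, which is yeast extract, peptone and dextrose (glucose), shaken, and collected after 24, 36 or 48 h. Messenger RNA was sequenced in 1 library per time point, and the labels do not say whether the collections came from the same flask. All libraries share strain, medium and extraction, and time in culture is the labelled difference. Genes were taken into the comparison where they had at least 1 FPKM at 24 h or at 36 h, which left 5025 of 5040 genes. FPKM relates a gene's fragments to its length in kilobases and to the mapped fragments of its library. A change is the difference of log2(FPKM + 1), 36 h minus 24 h, and a gene is called higher or lower from a size of 1, which is 2-fold on that scale. With 1 library a side there is no replicate error and no test, so every difference below is one between 2 libraries. The 48 h library did not enter the choice of any gene by its change, and its value is given beside the others.

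In yeasts, glucose represses genes for the use of other carbon sources. When glucose runs out, cells turn to ethanol, acetate, amino acids or stored carbohydrate, switch on the glyoxylate cycle and gluconeogenesis, and make fewer ribosomes. In P. pastoris the enzymes of methanol use are also held down by glucose. The sources used here give no glucose or ethanol reading for these cultures. The table names genes by locus tag only and pairs no tag with a gene name. The reference table at hand describes 5305 genes of another species, K. pastoris, and matched 0 of the tags. The 16 gene lists written for glucose exhaustion, from sugar transport and glycolysis to the glyoxylate cycle, methanol use and ribosomal proteins, therefore had 0 lists with members, and no tag below is given a function.

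The libraries differed in scale before any single gene is read. FPKM summed to 871921, 785727 and 760684 at 24, 36 and 48 h. The median gene was 0.21 lower at 36 h than at 24 h on the log2 scale. Scaling by the median of ratios brings this median to -0.0017, so a change near -0.21 is the typical value in this comparison. The 5 most abundant genes took up 6.61% of the 24 h total and 9.43% of the 36 h total.

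By the 2-fold rule, 476 (9.47%) of the 5025 genes were higher at 36 h and 973 (19.4%) were lower. Under median-of-ratios scaling 618 were higher and 751 lower, which raises the share of higher genes among those called from 32.9% to 45.1%. A level of 100 FPKM in either library was reached by 1769 genes. Their changes had an interquartile range from -0.94 to 0.68, and those of the other 3256 genes one from -0.73 to 0.22. Part of the wider range comes from the choice, since a gene that reaches the level in 1 library only has to differ. Among the 1040 genes that reached it in both libraries the range was from -0.60 to 0.53, with 132 genes higher and 166 lower. Among the 1769 genes, 318 (18.0%) were higher, 423 (23.9%) lower and 1028 within 2-fold with the deposited scaling. With median-of-ratios scaling the order turned, to 383 higher and 341 lower genes, so which direction was more frequent depends on the scaling.

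The 2 directions differed in how far single genes went. Among the 1769, with the deposited scaling, a 4-fold limit was passed upwards by 108 genes (6.11%) and downwards by 150 (8.48%). Whether this order holds with median-of-ratios scaling, which turned the order at 2-fold, was not tested. With an 8-fold limit, 52 genes were higher (2.94%) and 25 lower (1.41%). At 16-fold or more, 29 genes were higher (1.64%) and 2 lower (0.113%). Such calls depend on the constant added before log2, in both directions. With 10 in place of 1, PAS_chr1-1_0108 had a change of 3.64 in place of 5.11, which is under 16-fold. The count of 29 was not redone with it. The 29 genes had medians of 19.8, 966 and 993 FPKM at 24, 36 and 48 h, and none of them reached 100 FPKM at 24 h. Their joint share of total FPKM was 0.0982%, 6.32% and 9.97% at the successive times. The levels and shares at 24 h and 36 h follow in part from how these genes were chosen. A step from under 10 to 100 FPKM or more was made by 8 of the 1769 genes, and the opposite step by 4. Genes at 100 FPKM or more numbered 1456 at 24 h and 1353 at 36 h. The difference between the 2 steps was not tested.

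**Figure D1:**
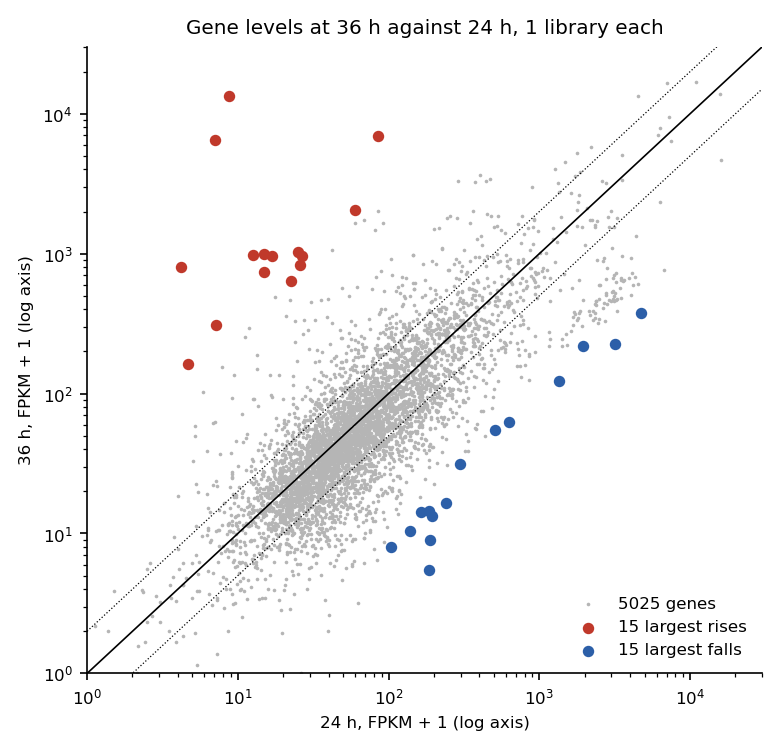
Level of each of 5025 genes (grey points) at 24 h (x axis) and 36 h (y axis), both as FPKM + 1 on log axes, 1 library each. The solid line marks equal levels and the dotted lines 2-fold differences. The 15 largest rises (red) start below 100 FPKM at 24 h. The 15 largest falls (blue) start between 102 and 4691 FPKM. Both were chosen among genes with at least 100 FPKM in either library, so a fall has to start at 100 FPKM or more.

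The most abundant genes split into a group with falls of similar size and a broad remainder. Genes were classed by the higher of their 2 values, which treats both libraries alike. Of the 187 genes with at least 1000 FPKM in either library, 88 were lower, 50 higher and 49 within 2-fold. For 66 of the 187 the change lay between -3 and -2, and 7 were at least 8-fold lower. In the class from 300 to under 1000 FPKM, 107 of 423 genes were higher and 81 lower, and 22 had a change between -3 and -2. From 100 to under 300 FPKM, 161 of 1159 genes were higher and 254 lower, and 37 had a change between -3 and -2. The class medians were -0.63, 0.11 and -0.13, from the most abundant class down.

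**Figure D2:**
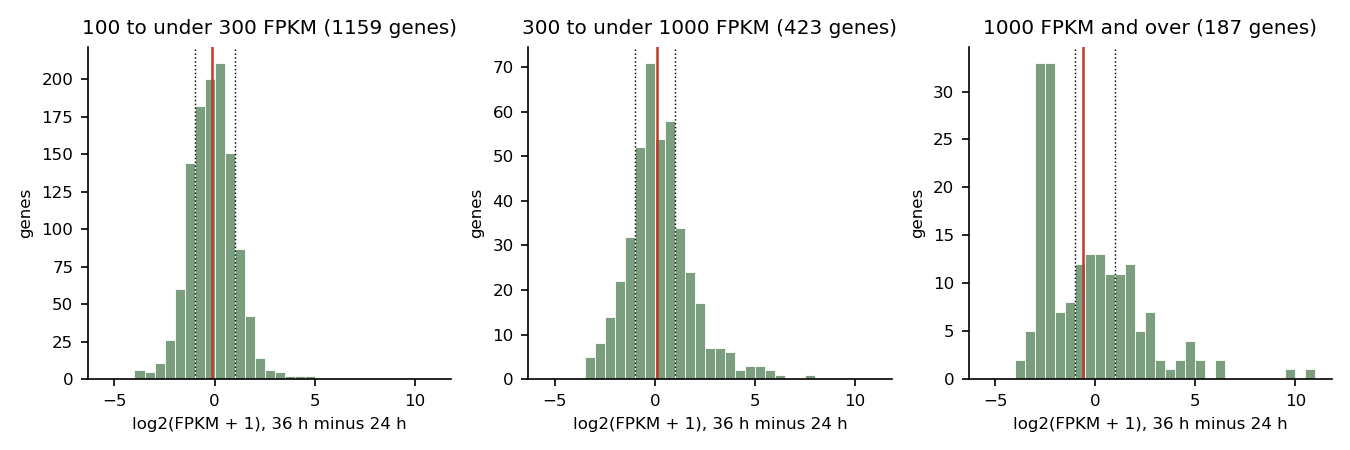
Number of genes (y axis) by change in log2(FPKM + 1), 36 h minus 24 h (x axis, bins of 0.5), in 3 classes by the higher of the 2 values. Red lines mark the class medians of -0.13, 0.11 and -0.63, and dotted lines the 2-fold rule. The most abundant class shows a separate peak between -3 and -2, which holds 66 of its 187 genes.

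The largest rise was that of PAS_chr4_0065, which stood at 7.68, 13379 and 819.7 FPKM at 24, 36 and 48 h, a change of 10.59. By rank it went from place 4928 of the table to place 5, and at 36 h it held 1.70% of total FPKM. PAS_chr3_0932 followed with 6.05, 6497 and 14606 FPKM and a change of 9.85. These genes were of like level at 24 h and both among the 10 most abundant at 36 h, but lay 17.8-fold apart at 48 h. PAS_chr2-2_0113 had 3.17, 802 and 5.21 FPKM at 24, 36 and 48 h, a change of 7.59. Its high value was seen in the 36 h library alone. PAS_chr3_0648 differed in its start, with 83.6, 6914 and 1445 FPKM at 24, 36 and 48 h, a change of 6.35. The size of these rises depends on the pseudocount, as the 24 h values are low. With a pseudocount of 10 the changes were 9.57 for PAS_chr4_0065, 8.66 for PAS_chr3_0932, 5.95 for PAS_chr2-2_0113 and 6.21 for PAS_chr3_0648, so that the last pair changes order.

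Among the other 11 of the 15 largest rises, the level at 48 h divided the genes further. PAS_chr1-3_0153 had 15.9, 967 and 85.2 FPKM at 24, 36 and 48 h. PAS_chr4_0064 had 25.7 FPKM, 966 FPKM and 77.2 FPKM at the same times. Both thus fell below 100 FPKM again, as did PAS_chr2-2_0113, while the other 12 of the 15 were at 100 FPKM or more at 48 h. PAS_chr4_0832 had 11.7, 985 and 635 FPKM, and PAS_chr3_0842 had 24.0, 1019 and 619 FPKM. PAS_chr1-4_0226 had 24.7, 825 and 433 FPKM. In these 3 genes the 48 h value was below that at 36 h by less than 2-fold. PAS_chr2-1_0088 had 6.18, 310.3 and 314 FPKM at 24, 36 and 48 h. PAS_chr4_0337 had 59.2, 2059 and 2039.5 FPKM. In both, the 36 h and 48 h values lay close together.

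For the remaining genes of this set the value at 48 h was above that at 36 h. PAS_chr1-4_0538 had 13.9, 1001 and 1864 FPKM at 24, 36 and 48 h. PAS_chr2-2_0267 had 14.0, 739.6 and 1806 FPKM. PAS_chr1-1_0108 had 3.68, 161 and 914 FPKM. PAS_chr2-2_0208 had 21.6, 634 and 6525 FPKM, and its 48 h value was at place 8 of the table. Together, 6 of the 15 were higher at 48 h than at 36 h and 9 were lower. The changes from 24 h to 36 h of these 15 genes ran from 4.81 to 10.59. The gene just outside, PAS_chr4_0352, also had a change of 4.81, with 21.3, 623 and 1306 FPKM, so the limit at 15 separates no group. The 15 genes that follow had changes from 3.88 to 4.81 and medians of 21.3, 486 and 1485 FPKM at 24, 36 and 48 h.

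**Figure D3:**
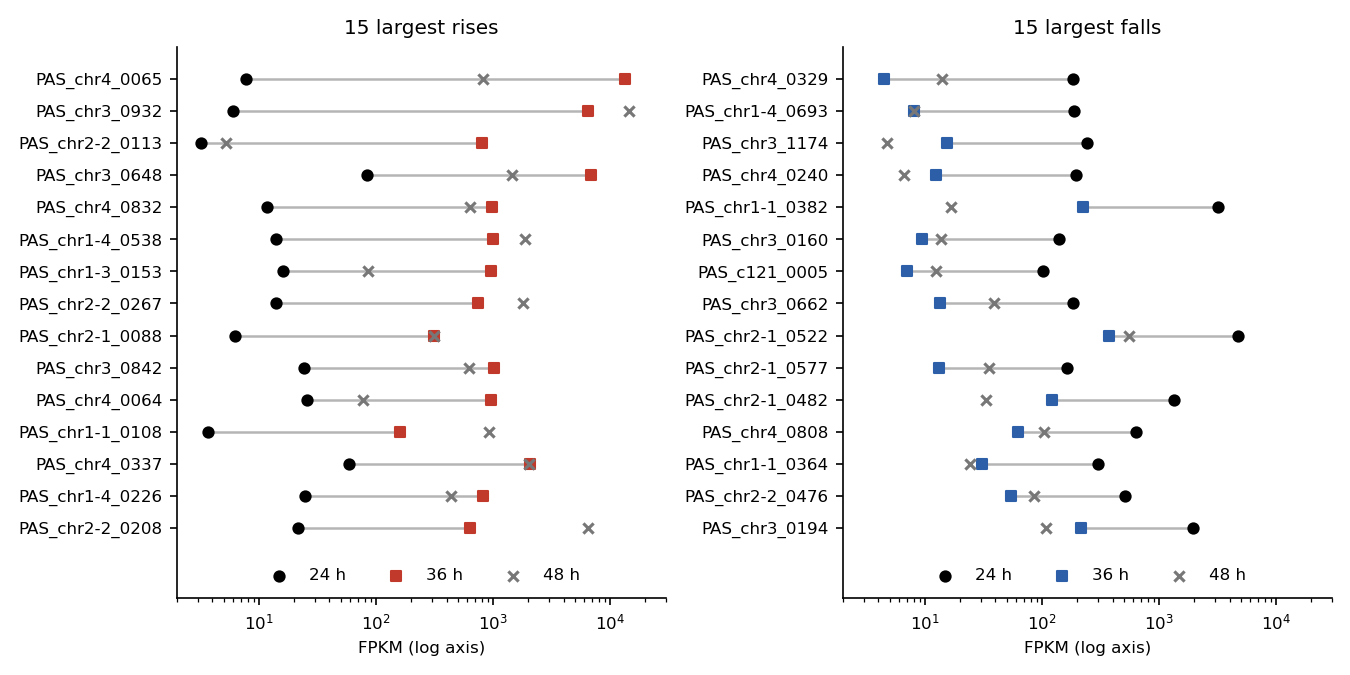
FPKM (x axis, log) of the 15 largest rises (left) and the 15 largest falls (right) from 24 h to 36 h among genes with at least 100 FPKM in either library, 1 row per locus tag. Circles are 24 h, squares 36 h and crosses 48 h, 1 library each. Of the rises, 12 stand at 100 FPKM or more at 48 h, and of the falls, 3.

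In 12 of the 1769 genes the level passed from below 100 FPKM at 24 h to 1000 FPKM or more at 36 h. In 0 genes it passed the other way. Genes at 1000 FPKM or more numbered 138 at 24 h and 98 at 36 h. The summed share of FPKM of the 12 was 0.0708% in the 24 h library and 5.15% in the 36 h library. Both shares follow in part from the limits by which the 12 were chosen. Of the 12, 6 are among the 15 largest rises, and the others are described here. PAS_chr4_0627 had 79.7, 1486 and 11902 FPKM at 24, 36 and 48 h, a change of 4.20 by 36 h. PAS_chr4_0972 had 58.6, 1655 and 10023 FPKM, and PAS_chr2-2_0131 had 91.3, 1654 and 6670.3 FPKM. PAS_chr1-1_0118 had 84.6, 2024 and 5693 FPKM. These 4 genes were among the 12 most abundant of the table at 48 h, and in each the 48 h value was more than 2-fold above that at 36 h. PAS_chr3_0408 had 67.7, 1741 and 1485 FPKM at 24, 36 and 48 h. PAS_chr3_0377 had 41.1, 1067 and 7.24 FPKM, and like PAS_chr2-2_0113 it was high in the 36 h library alone. By the prefix of the tags, 5 of the 12 lie on chromosome 3, 4 on chromosome 4, 2 on chromosome 1 and 1 on chromosome 2. Of the 1769 genes, 23.6%, 19.3%, 27.7% and 26.8% lie on these chromosomes, and with 12 genes the difference in shares was not tested.

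Of the 15 largest falls, 9 (60.0%) stood under 300 FPKM at 24 h, beside 65.5% of the 1769 genes under 300 FPKM in both libraries. With the pseudocount of 1, the largest was that of PAS_chr4_0329, with 184, 4.44 and 14.0 FPKM at 24, 36 and 48 h, a change of -5.08. PAS_chr1-4_0693 had 188 FPKM, 7.98 FPKM and 8.10 FPKM, a change of -4.40. These are the 2 genes that were at least 16-fold lower, a call that rests on the pseudocount. With a pseudocount of 10 their changes were -3.74 and -3.46, neither was 16-fold, and PAS_chr1-1_0382 had the largest fall at -3.75. PAS_chr3_1174 had 240.2, 15.4 and 4.75 FPKM at 24, 36 and 48 h, a change of -3.87. PAS_chr4_0240 had 194, 12.4 and 6.57 FPKM. Both were lower still at 48 h.

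Of the 15 largest falls, 4 stood above 1000 FPKM at 24 h. PAS_chr2-1_0522, at place 11 of the table at 24 h, had 4691, 376 and 548 FPKM in the 3 libraries. PAS_chr1-1_0382 had 3160.2, 225 and 16.8 FPKM. Their changes were -3.64 and -3.80. PAS_chr2-1_0482 had 1344, 122 and 33.0 FPKM, and PAS_chr3_0194 had 1947, 217 and 108 FPKM. Of these 4 genes, PAS_chr2-1_0522 was higher at 48 h than at 36 h and the others lower. PAS_chr4_0808 had 631, 61.7 and 104 FPKM at 24, 36 and 48 h. PAS_chr2-2_0476 had 509, 54.2 and 85.0 FPKM, and PAS_chr1-1_0364 had 298, 30.5 and 24.1 FPKM.

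The last 4 of the falls started between 102 and 184 FPKM and were higher at 48 h than at 36 h. PAS_chr3_0662 had 184, 13.4 and 38.9 FPKM at 24, 36 and 48 h. PAS_chr2-1_0577 had 164, 13.2 and 35.3 FPKM. PAS_chr3_0160 had 139, 9.48 and 13.7 FPKM, and PAS_c121_0005, on a contig the tag gives no chromosome for, had 102, 7.02 and 12.5 FPKM. Among all 15 falls, 9 were higher at 48 h than at 36 h and 6 lower, and 3 were at 100 FPKM or more at 48 h. The gene just outside this set, PAS_chr2-1_0852, had 199, 21.5 and 42.3 FPKM at 24, 36 and 48 h, a change of -3.15 against -3.16 for PAS_chr3_0194. The 15 genes that follow had changes from -2.88 to -3.15 and medians of 338, 44.9 and 42.3 FPKM.

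Of the 5 most abundant genes at 24 h, 1 was at least 2-fold lower at 36 h and 4 were within 2-fold. PAS_FragB_0052, the most abundant at 24 h, had 16025, 4692 and 2969 FPKM, a change of -1.77. PAS_chr1-4_0586 had 15894, 13791 and 6226 FPKM, and PAS_chr3_0826 had 7429, 6384 and 433 FPKM. Their changes by 36 h were -0.20 and -0.22, close to that of the median gene. PAS_chr2-1_0437 had 10954, 16999 and 3033 FPKM, of which the 36 h value is the highest of its library. PAS_chr3_0188 had 7289, 9520.3 and 1077 FPKM. Their changes of 0.63 and 0.39 were within 2-fold, and all 4 of these genes were lower at 48 h than at either earlier time.

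At 36 h the other places among the 5 most abundant were taken by PAS_chr4_0065 and by a pair of genes that were already abundant. PAS_chr2-1_0472 had 7055, 16505 and 13308 FPKM at 24, 36 and 48 h, a change of 1.23. PAS_chr1-4_0570 had 4507, 13453 and 1577 FPKM, a change of 1.58. PAS_chr1-1_0158, at place 5 of the table at 48 h with 8251 FPKM, had 52.4 FPKM at 24 h and 121 FPKM at 36 h. Most of its difference from 24 h was thus seen after 36 h.

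In units of FPKM the movement lay largely in few genes, as FPKM itself does. The 3256 genes under 100 FPKM in both libraries held 15.4% of FPKM at 24 h and 14.7% at 36 h. Whether the movement was more concentrated than the levels was not tested. Rises summed to 255109 FPKM over 2007 genes, and falls to -341303 FPKM over 3028 genes, a net of -86194 FPKM. Of the summed rises, 50% lay in 49 genes, and of the summed falls, 50% lay in 63 genes. The 10 largest rises made up 25.3% of the rises, and the 10 largest falls 13.8% of the falls. The largest in each direction were PAS_chr4_0065, higher by 13371 FPKM, and PAS_FragB_0052, which fell by 11333 FPKM. PAS_chr2-1_0472 was higher by 9450.3 FPKM and PAS_chr1-4_0570 by 8946 FPKM, although their changes on the log2 scale were under 2. PAS_chr3_1200, named after its values were seen, had 6764, 764 and 301 FPKM at 24, 36 and 48 h. The 318 genes of at least 100 FPKM that were 2-fold higher made up 7.17%, 31.5% and 40.2% of FPKM at 24, 36 and 48 h. The 423 that were 2-fold lower held 38.9%, 10.1% and 7.26%. These shares at 24 h and 36 h follow in part from how the sets were chosen. Those at 48 h share no value with that choice, but a comparison of 48 h with 24 h or 36 h does.

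**Figure D4:**
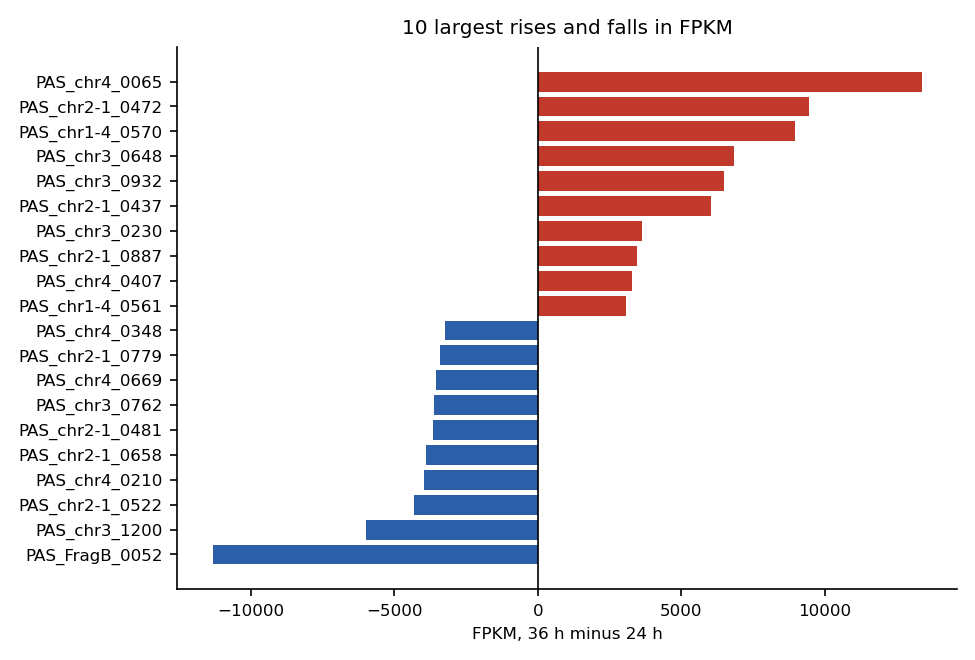
Difference in FPKM between 36 h and 24 h (x axis) for the 10 genes with the largest rise (red bars) and the 10 with the largest fall (blue bars), 1 library a side. The bars run from -11333 FPKM for PAS_FragB_0052 to 13371 FPKM for PAS_chr4_0065.

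Some of the largest rises had a neighbour by tag that was also at least 4-fold higher. Others had a neighbour that was lower, such as PAS_chr4_0831 beside PAS_chr4_0832 (-2.39) and PAS_chr2-1_0087 beside PAS_chr2-1_0088 (-2.65). PAS_chr4_0064 and PAS_chr4_0065 were both high at 36 h and both lower at 48 h, as described above. PAS_chr3_0841 had 217, 1535 and 1755 FPKM at 24, 36 and 48 h, beside PAS_chr3_0842 and PAS_chr3_0843, of which the last had 10.8, 294 and 136 FPKM. PAS_chr1-3_0152 had 23.1, 233 and 190.1 FPKM beside PAS_chr1-3_0153. PAS_chr3_0931 had 93.3, 400.3 and 147 FPKM beside PAS_chr3_0932, so their 48 h values went opposite ways. These neighbours were named after their values were seen. Of 202 genes with a tag next to one of the 108 genes that were at least 4-fold higher, 20.3% were at least 2-fold higher and 14.9% lower, beside 9.47% and 19.4% of all genes and 18.0% and 23.9% of those with at least 100 FPKM. The difference was not tested. A gene next to 2 such genes is counted for each.

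Falls also occurred at consecutive tags. Of 286 genes with a tag next to one of the 150 genes at least 4-fold lower, 26.2% were at least 2-fold lower and 9.79% higher. Here too a gene next to 2 such genes is counted for each, as in the runs named below. The shares of all genes, from which the neighbours were drawn, were 19.4% and 9.47%. Of those with at least 100 FPKM, 23.9% were lower and 18.0% higher. The difference was not tested. Runs of 3 consecutive tags that were all at least 4-fold lower were PAS_chr1-4_0489 to PAS_chr1-4_0491, PAS_chr2-1_0481 to PAS_chr2-1_0483 and PAS_chr4_0412 to PAS_chr4_0414. In the last run PAS_chr4_0412 went from 1709 to 381 FPKM, PAS_chr4_0413 from 3496 to 650.2 FPKM, and PAS_chr4_0414 from 2492 to 471 FPKM. Their changes of -2.16, -2.42 and -2.40 lie within the peak described for abundant genes. Strand and gene ends were not used here, so reads shared by overlapping neighbours cannot be told apart from separate transcripts.

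By the prefix of the tags, the share of the 1769 genes at least 2-fold higher was 14.7% of 490 on chromosome 1, 16.7% of 474 on chromosome 2, 19.9% of 418 on chromosome 3 and 22.9% of 341 on chromosome 4. At least 2-fold lower were 23.7%, 25.9%, 20.3% and 25.2%. In the same order, the 4-fold limit was passed upwards by 5.1%, 5.27%, 7.66% and 7.33%, and downwards by 8.16%, 9.70%, 5.02% and 10.9%. Of 46 genes whose tags give no chromosome, 13.0% passed the 2-fold rule upwards and 28.3% downwards. By 4-fold or more, 2.17% of them rose and 13.0% fell. These shares, all with the deposited scaling, were not tested against each other.

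Below 100 FPKM in both libraries, 158 genes (4.85% of 3256) were at least 2-fold higher and 550 (16.9%) lower, and median-of-ratios scaling gave 235 and 410. The largest rise there was in PAS_chr2-1_0249, with 4.18, 57.5 and 342 FPKM at 24, 36 and 48 h. Among genes not listed at 0, the largest fall there was in PAS_chr1-4_0374, with 38.9, 0.993 and 3.18 FPKM at 24, 36 and 48 h. PAS_chr1-4_0442 was listed at 0 at 36 h, with 25.3 FPKM at 24 h and 40.2 FPKM at 48 h. No fold is given for it, since a 0 in such a table can be a failed estimate.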

How the data were processed

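The authors deposited 1 table of FPKM values for 5040 genes, 1 column per library, per the file headers. Columns were matched to times by the codes in the sample titles. Reads were handled with CASAVA and HISAT2 2.1.0, per the submitters' processing notes. The sources used here do not give the counting program, genome build, annotation, strandedness or filters. Depth was looked for in 25 genes under 3 FPKM in both libraries. The best common scaling placed 40.0% of ratios within 0.05% of ratios of whole numbers up to 30, against 36.0% to 48.0% in 20 jittered copies, so whole reads were not recovered and depth is unknown.

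Genes with at least 1 FPKM at 24 h or 36 h were kept, a pseudocount of 1 was added before log2, and no test was made. FPKM is relative to the mapped fragments of each library, so a change in abundant genes can shift the values of others. Summed FPKM is not fixed, and it differed between the libraries as given above. Named by rule were the 15 largest rises and 15 largest falls among genes with at least 100 FPKM in either library and no value listed at 0, genes that crossed from under 100 to at least 1000 FPKM or back, and the 5 most abundant genes per library, 44 tags in all. Neighbouring tags and the other tags outside this rule were named after their values were seen. Members, lists and rules were chosen with earlier results of these data known. Alternatives were pseudocounts of 0.1 and 10, no filter or 10 FPKM, median-of-ratios scaling, a trimmed mean of log ratios (dropping 30% of ratios and 5% of levels at either end), a 4-fold rule, and level limits of 50 and 300 FPKM. Counting and scaling were checked on simulated data. Python 3.11.15, numpy 2.4.6, pandas 2.3.3 and matplotlib 3.10.9 were used.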

Additional observations from a re-analysis of the deposited data

How the results depend on the processing

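The alternatives gave 32 counts, of which 25 lay within 1.5 times the main one. A 4-fold rule, stricter by construction, gave 131 higher and 261 lower genes, and 108 and 150 among those of at least 100 FPKM. A level limit of 50 FPKM, which takes in more genes, gave 656 lower genes, and a limit of 300 FPKM gave 157 higher and 169 lower. The median change went from -0.21 to -0.0017 with median-of-ratios and -0.0041 with trimmed-mean scaling, both of which centre the genes by design. The latter gave 615 higher and 756 lower genes. The 44 named tags were tried under both pseudocounts and both scalings, and 0 of those called changed direction, which says little, as most were chosen for large changes. In 17 cases, all with a pseudocount of 10, a named change moved by 0.5 or more. Of the 15 largest rises, 12 remained with a pseudocount of 10 and 14 with a limit of 300 FPKM. Of the 15 largest falls, 11 and 6 remained. The limit of 300 FPKM removes by construction the 9 falls that stood under 300 FPKM at 24 h. It likewise removes PAS_chr1-1_0108 from the rises. With a limit of 50 FPKM, 15 rises and 11 falls remained, so the list of falls depends on the level limit. No paired analysis was possible because there is 1 library a side. Depth is unknown and nothing is replicated, which weighs most on low values.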
